A study of Mus musculus with 4 samples.

Results

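The keratin genes described here, 8 of the 32285 genes in the table, were chosen by name and described across cell types: Krt7, Krt8, Krt18 and Krt19, the keratins of single-layered (simple) epithelia, and Krt5, Krt14, Krt15 and Krt17, which are best known from basal and stratified epithelia. The cells came from collecting lymphatic vessels, with the tissue around them, of C57BL/6J mice, 4 males and 4 females, that were 12 to 14 weeks old. No gene was altered and no treatment was given in these samples. For each mouse the vessels of 4 anatomical regions were combined before dissociation, and the 4 deposited samples are a gene expression library and a multiplexing oligo library for the male pool and for the female pool. The deposited table merges all cells under 8 barcode suffixes that no label ties to a mouse or a sex, so it was treated as 1 pooled sample, no sex or mouse was assigned, and no test between groups was possible. Intervals below are 95% intervals that cover counting error only, and the 8 suffixes are shown as unlabelled samples.

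Keratins form the intermediate filaments of epithelial cells and are obligate heteropolymers, each filament being built from a type II keratin (here Krt5, Krt7 and Krt8) paired with a type I keratin (Krt14, Krt15, Krt17, Krt18 and Krt19). Krt8 with Krt18 is the founding pair of simple epithelia, Krt7 and Krt19 join it in ducts and in mesothelium, and Krt5 with Krt14 is the pair of basal and myoepithelial cells. Mesothelium is the flat sheet that lines the body cavities and the mesentery. It is of mesodermal origin and makes simple keratins together with vimentin, the filament protein of mesenchymal cells.

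The type II genes lie on chromosome 15 and the type I genes on chromosome 11, except Krt18, which lies beside Krt8 (GENCODE M21 annotation of GRCm38, the mm10 build named in the submitters' processing notes). All 8 are protein-coding. Krt7 spans chr15:101411043-101430313 on the plus strand, Krt5 chr15:101707070-101712898 on the minus strand, Krt8 chr15:101996698-102004482 on the minus strand and Krt18 chr15:102028180-102032027 on the plus strand. Krt8 and Krt18 thus point away from each other, with 23697 bases between the genes. On chromosome 11 the minus strand carries Krt15 (chr11:100131758-100135928), Krt19 (chr11:100140810-100148665), Krt14 (chr11:100203162-100207548) and Krt17 (chr11:100256217-100261029).

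The promoter sequences of Krt8 and Krt18 are shown because these neighbours had the most alike levels over cell types (below), and that of Krt5 because its levels had the opposite pattern within epithelium. They are the bases before the first annotated exon, within 250 bases of the RefSeq start, 5' to 3' on the gene's strand (GRCm38.p6). Capitals mark a match to GCCNNNGGC, the palindromic core bound by AP-2 factors. The stretches are chr15:102004483-102004592 (Krt8, minus strand), chr15:102027966-102028179 (Krt18, plus strand) and chr15:101712906-101713155 (Krt5, minus strand).
Krt8: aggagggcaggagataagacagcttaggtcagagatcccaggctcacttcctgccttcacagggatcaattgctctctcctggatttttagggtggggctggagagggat
Krt18: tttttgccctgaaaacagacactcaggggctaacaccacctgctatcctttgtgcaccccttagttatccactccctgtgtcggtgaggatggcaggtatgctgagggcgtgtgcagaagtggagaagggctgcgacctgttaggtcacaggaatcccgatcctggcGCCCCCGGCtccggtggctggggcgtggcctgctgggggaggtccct
Krt5: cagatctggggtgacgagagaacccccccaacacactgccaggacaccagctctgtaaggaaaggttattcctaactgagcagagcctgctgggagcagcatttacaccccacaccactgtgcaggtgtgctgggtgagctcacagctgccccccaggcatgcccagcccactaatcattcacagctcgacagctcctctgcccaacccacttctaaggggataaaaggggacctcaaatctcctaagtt
RefSeq's promoter table held 5 of the 8 genes (Krt5, Krt7, Krt8, Krt14 and Krt18), of which the Krt14 start lies inside the GENCODE gene. In the 250 bases before each start, on both strands, GCCNNNGGC occurred in Krt7 and Krt18 and GGGCGG, the core bound by Sp1, in Krt7. The Krt18 match lies 83 to 75 bases before the RefSeq start. TATAAA and TGANTCA, the TATA box and the AP-1 core, matched in none of the 5. Of 32851 mouse promoters of the same length, 13.7% held GCCNNNGGC, 32.7% GGGCGG, 12.4% TATAAA and 6.75% TGANTCA.

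Cell types were gated on raw UMIs (unique molecular identifiers, 1 per captured transcript) of genes that are not keratins. After filters and doublet removal 22947 of 24046 barcodes were kept, and 17655 of them were assigned to 1 type; 15 of the 17 types held at least 50 cells. The 8 suffixes held 2375 to 3315 barcodes each, and the median barcode had 8684.5 UMIs. Suffixes 1 to 4 and 5 to 8 form separate sets: no barcode sequence recurred within a set, and 44 recurred across the sets. Mesothelial cells (at least 1 UMI each of Upk3b, a uroplakin, and Msln, mesothelin) numbered 843 and came from all 8 suffixes, 24 to 138 cells in each. Cells with Epcam, an epithelial adhesion molecule, numbered 116 with a UMI of Pgr, the progesterone receptor, and 110 without. All 116 Pgr-positive cells came from suffixes 1 to 4, as did 94 of the 110 Pgr-negative cells.

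Markers outside the gates were measured to check these names. Levels are given as CPM (counts-per-million: a gene's UMIs relative to all gene UMIs of the group). In mesothelial cells all 7 mesothelial markers were found in 70.7% to 96.6% of cells, among them Wt1, a mesothelial transcription factor, in 95.5%. Of the epithelial markers Cdh1, the epithelial cadherin, had a UMI in 0.712% of mesothelial cells and Ehf, an epithelial transcription factor, in none. Not all were so low: 2 of the 7 were found in at least 10% of mesothelial cells, and the claudin Cldn3 stood at 24.2 CPM. The 7 summed to 71.6 CPM in mesothelial cells and 2858 CPM in Pgr-positive cells. The fibroblast genes Dcn, Lum and Col3a1 summed to 17832 CPM in mesothelial cells. Pgr-positive cells carried Cdh1 in 95.7%, the prolactin receptor Prlr in 96.6%, the estrogen receptor Esr1 in 89.7% and Foxa1, a luminal transcription factor, in 88.8%, while Trp63, the regulator of basal epithelium, had no UMI. The Pgr-negative gate was mixed: Cdh1 was found in 39.1% of its cells, Trp63 in 11.8% and Elf5, a regulator of the alveolar luminal lineage, in 17.3%. Markers of other types were higher there than in Pgr-positive cells: the 3 fibroblast genes summed to 2731 against 161 CPM and the macrophage genes Mrc1, Csf1r and C1qb to 249.5 against 25.6 CPM. In the 67 Pgr-negative cells without Cdh1 the macrophage genes reached 616 CPM; in the 43 with Cdh1 they stood at 42.5 CPM. The part of these cells in the keratin levels was not tested.

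Mesothelial cells had the simple keratins and very little of the basal ones, with Krt19 well ahead. Summed over the 843 cells Krt19 stood at 1351 CPM (1332 to 1372), Krt8 at 372 CPM (362 to 383), Krt18 at 344 CPM (334 to 354) and Krt7 at 219 CPM (211 to 227). Krt14 stood at 22.6 CPM (20.1 to 25.3), Krt15 at 3.74 CPM (2.77 to 4.94), Krt17 at 2.14 CPM (1.42 to 3.09) and Krt5 at 0.458 CPM (0.168 to 0.997). UMI counts are per transcript and were not scaled for length, so a comparison between genes also holds any difference in how well each is captured. Of the 8 keratins 5 reached 10 CPM in mesothelial cells, against 64.4% of 13780 genes that reached it in any type. None of the 8 had its highest level there, against 7.2% of those genes.

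**Figure D1:**
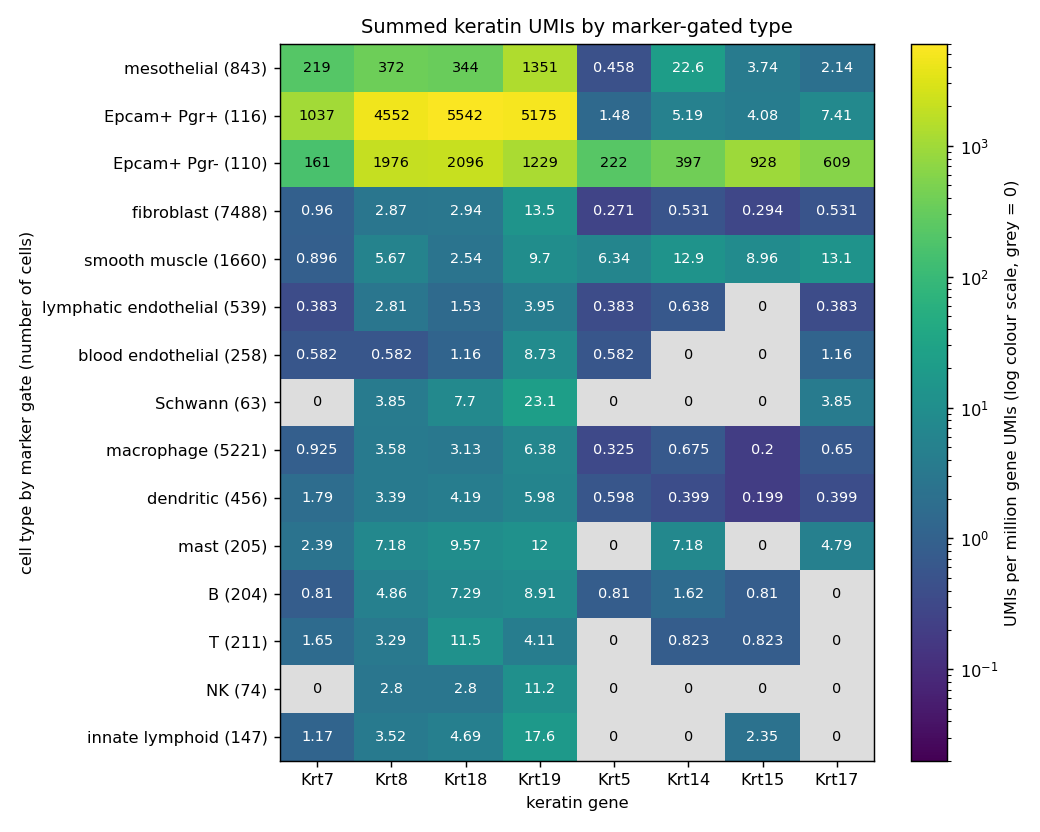
Level of each keratin (columns) in 15 marker-gated cell types (rows, number of cells in parentheses) as CPM of summed UMIs on a log colour scale, with 0 in grey. The simple keratins Krt7, Krt8, Krt18 and Krt19 exceed 100 CPM in mesothelial and both Epcam-positive types, the basal keratins exceed it in Epcam+ Pgr- cells, and every other type lies between 0 and 23.1 CPM.

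B cells were taken as the type that should lack keratins. Their median of 4688 UMIs per cell compares with 13942 in mesothelial cells. In 204 B cells Krt19 was found in 4.41%, Krt18 in 3.92%, Krt8 in 2.94% and Krt7 in 0.490%, against 98.2%, 79.0%, 84.7% and 80.7% of mesothelial cells. With each cell thinned to 1000 UMIs the mesothelial shares were 65.4%, 23.8%, 24.6% and 16.1%, and those of B cells 0.980%, 0.490%, 1.47% and 0%. All 4 simple keratins were thus found in more mesothelial than B cells at equal depth. The CPM ratios, from all UMIs without thinning, were 152 (84.8 to 304) for Krt19, 76.5 (35.1 to 209) for Krt8 and 47.2 (24.9 to 103) for Krt18. Krt7, with 1 UMI in B cells, had a ratio of 271 (48.5 to 10691). Krt14 was found in 7.83% of mesothelial cells against 0.980% of B cells, a ratio of 13.9 (3.83 to 116) in CPM that rests on 2 UMIs in B cells. Krt5 (0.712% of mesothelial cells against 0.490%), Krt15 (4.39% against 0.490%) and Krt17 (3.08% against 0%) had ratio intervals against B cells that include 1. Against fibroblasts, a larger group, Krt15 was 12.7 times higher (7.76 to 21.4, in 7 of 8 suffixes) and Krt17 4.03 times (2.43 to 6.57, in 6 of 8), while the Krt5 ratio of 1.69 (0.565 to 4.24) includes 1. In suffixes 5 to 8 mesothelial cells had 19 Krt15 and 9 Krt17 UMIs, and neither gene had a UMI in 3898 fibroblasts or 3332 macrophages there. Suffix 7 gave 15 of those 19 Krt15 UMIs and 5 of the 9 Krt17 UMIs.

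The 4 simple keratins were present in mesothelial cells of every suffix, at levels that differed between suffixes. Krt19 was lowest at 1090 CPM, had a median of 1256 CPM and was highest at 1620 CPM over the 8 suffixes. Krt7 ranged from 180 to 282 CPM with a median of 206 CPM, Krt8 from 239 to 452 CPM with a median of 404 CPM, and Krt18 from 196 to 485 CPM with a median of 336 CPM. The ranges of Krt7, Krt8 and Krt18 overlapped, and Krt19 was above all of them in every suffix. Between the sets, Krt19 in suffixes 1 to 4 was 0.987 times (0.958 to 1.02) its level in suffixes 5 to 8, Krt18 1.09 times (1.03 to 1.16), Krt7 0.800 times (0.743 to 0.861) and Krt8 0.713 times (0.673 to 0.755). The Krt8 values of suffixes 1 to 4 (239, 409, 326 and 288 CPM) and of suffixes 5 to 8 (447, 398, 452 and 447 CPM) overlapped in 1 suffix.

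**Figure D2:**
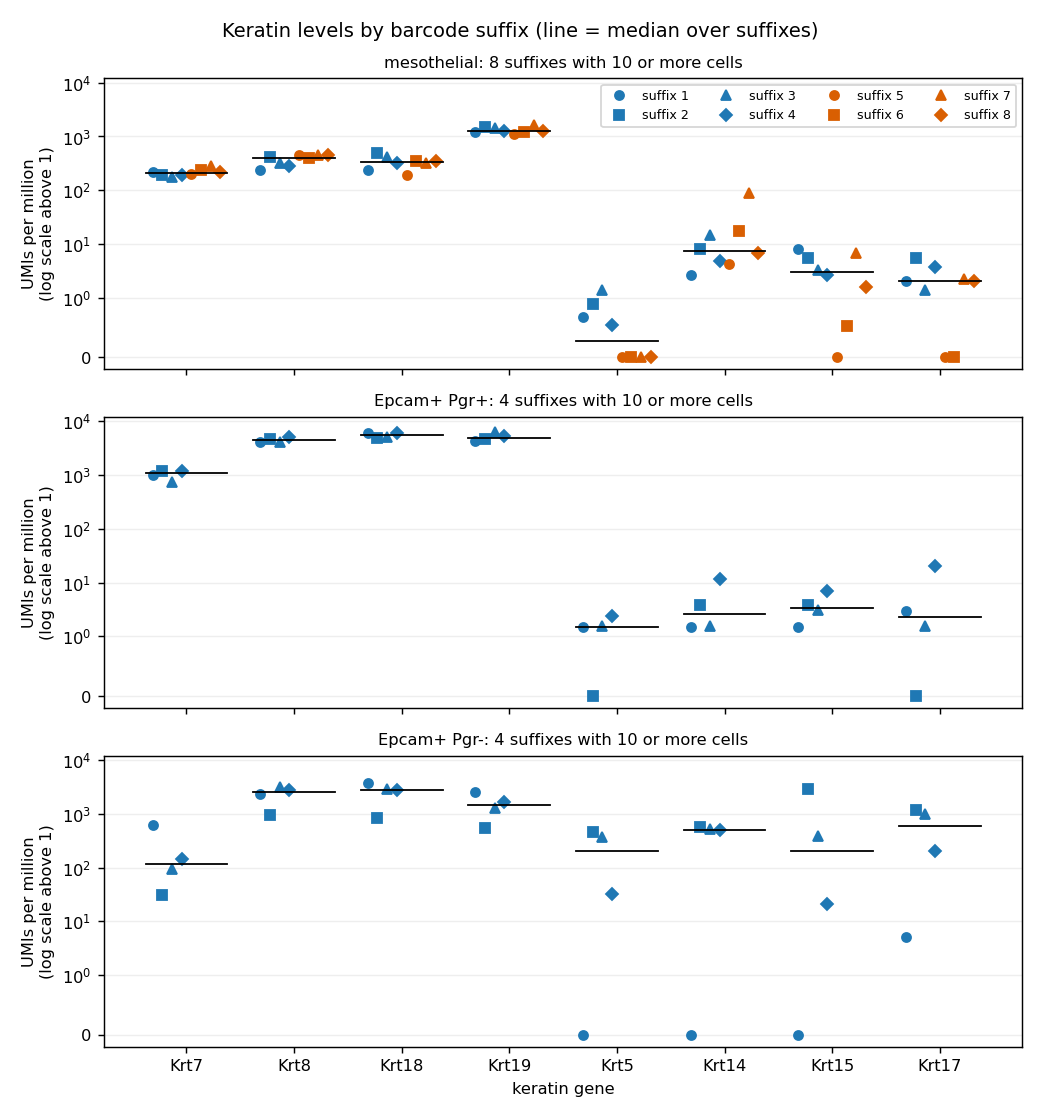
Level of each keratin in CPM (log scale above 1) by barcode suffix, for mesothelial, Epcam+ Pgr+ and Epcam+ Pgr- cells; blue marks suffixes 1 to 4, orange 5 to 8, the line is the median over suffixes, and suffixes with under 10 cells are left out. The simple keratins lie close together in mesothelial and Pgr+ cells, Krt14 of mesothelial cells is far highest in suffix 7 at 86.9 CPM, and the basal keratins of Pgr- cells range from 0 to 2847 CPM.

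Krt14 varied most in fold among the 5 keratins above 10 CPM. Its mesothelial levels in suffixes 1 to 8 were 2.70, 8.11, 14.7, 4.82, 4.16, 17.6, 86.9 and 6.73 CPM, so 195 of its 296 UMIs came from suffix 7. There 24 of 132 mesothelial cells had Krt14, 11 had at least 5 UMIs and the highest cell had 61. Over all suffixes 15 mesothelial cells had at least 5 Krt14 UMIs (a limit set after the values were seen). These 15 cells had a median of 20686 UMIs against 13888 in the other 828, whose part in the choice was not tested. They had no Krt5 UMI. Krt15 was higher, at 25.6 against 3.14 CPM (ratio 8.16, 3.48 to 17.1), on 9 UMIs in the 15 cells. The simple keratins were higher too: Krt7 at 581 against 209 CPM (ratio 2.78, 2.40 to 3.20), Krt18 at 777 against 332 CPM (2.34, 2.06 to 2.64), Krt8 at 734 against 362 CPM (2.03, 1.78 to 2.30) and Krt19 at 1821 against 1339 CPM (1.36, 1.26 to 1.47). Of the 15 cells 11 came from suffix 7, whereas the other 828 pooled all 8 suffixes, so these ratios also hold any difference between suffixes. The 11 had Krt7 at 636, Krt8 at 757, Krt18 at 675 and Krt19 at 1822 CPM. In their highest suffix, cells under 5 Krt14 UMIs had 236, 447, 485 and 1594 CPM. All 7 mesothelial markers were found in at least 10% of the 15 cells, with Wt1, Lrrn4 and Muc16 in 100%. Of the 7 epithelial markers 5, Cdh1 included, had no UMI there and 2 were found in at least 10%. Krt14 and Krt17 share 9.53% of the 50-base words in their last 500 transcript bases with each other or with Krt16. Reads that lie wholly in such shared sequence do not tell these genes apart, and their effect on the counts was not tested. Krt17 in these 15 cells was 2 UMIs.

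The Pgr-positive Epcam cells had the highest levels of the 4 simple keratins of any gated type. Krt18 stood at 5542 CPM (5453 to 5631), Krt19 at 5175 CPM (5090 to 5262), Krt8 at 4552 CPM (4472 to 4634) and Krt7 at 1037 CPM (999 to 1076). Krt8 and Krt18 each had a UMI in 99.1% of the 116 cells, Krt19 in 98.3% and Krt7 in 97.4%. Thinned to 1000 UMIs, Krt18 was still found in 97.4%, Krt8 in 94.8%, Krt19 in 94.0% and Krt7 in 57.8%. The unthinned median was 20140.5 UMIs per cell. In suffixes 1 to 4 Krt18 was 5985, 4874, 5052 and 5980 CPM, Krt19 was 4369, 4751, 6269 and 5249 CPM, Krt8 was 4049, 4787, 4152 and 5113 CPM, and Krt7 was 1016, 1173, 758 and 1181 CPM. Each value was above every mesothelial value of the same gene.

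Basal keratins were near absent from these 116 cells, a group without Pgr-positive cells that also met the smooth muscle gate. With such cells counted (144 cells), Krt17 was 358 CPM, Krt14 272 CPM, Krt15 152 CPM and Krt5 129 CPM. In the 116 cells Krt5 stood at 1.48 CPM (0.404 to 3.80), Krt15 at 4.08 CPM (2.04 to 7.30), Krt14 at 5.19 CPM (2.84 to 8.71) and Krt17 at 7.41 CPM (4.53 to 11.4). Relative to mesothelial cells, Krt18 was 16.1 times higher (15.6 to 16.7), Krt8 12.2 times (11.8 to 12.6), Krt7 4.73 times (4.49 to 4.99) and Krt19 3.83 times (3.75 to 3.92). The excess over mesothelium was thus greatest for the Krt8 and Krt18 pair. Pgr-positive cells all came from suffixes 1 to 4, whereas the mesothelial levels in these ratios pooled all 8 suffixes. In suffixes 1 to 4 alone mesothelial Krt7 stood at 195 CPM, Krt8 at 310 CPM, Krt18 at 360 CPM and Krt19 at 1343 CPM. Krt17 was 3.47 times higher (1.85 to 6.38) in Pgr-positive cells, a value that rests on 20 UMIs in 3 cells, and Krt14 was 4.35 times higher (2.55 to 8.06) in mesothelial cells. Of 111 Pgr-positive cells with Cdh1, 1 cell had 3949 CPM of summed Krt5, Krt14 and Krt17, and the others had at most 122 CPM. The Krt5 ratio of 3.24 (0.672 to 13.6) and the Krt15 ratio of 1.09 (0.511 to 2.12) have intervals that include 1. Without suffix 7 the mesothelial Krt14 level was 9.30 CPM, and without suffix 4 the Pgr-positive Krt17 level was 1.62 CPM, under the mesothelial level.

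The Pgr-negative Epcam cells held both kinds of keratin when summed. Krt18 stood at 2096 CPM (2015 to 2179), Krt8 at 1976 CPM (1898 to 2057), Krt19 at 1229 CPM (1167 to 1293) and Krt7 at 161 CPM (140 to 186). Krt15 stood at 928 CPM (875 to 984), Krt17 at 609 CPM (565 to 654), Krt14 at 397 CPM (362 to 434) and Krt5 at 222 CPM (196 to 250). Fewer cells carried them: Krt19 was found in 39.1%, Krt8 and Krt18 in 36.4% each, Krt17 in 23.6%, Krt7 in 22.7%, Krt5 in 18.2%, Krt14 in 17.3% and Krt15 in 13.6% of 110 cells with a median of 6645 UMIs. After thinning to 2000 UMIs, 45 of 101 cells (44.6%) had none of the 8, against 1 of 115 Pgr-positive cells. Thinned to 1000 UMIs, Krt8 and Krt18 were each found in 29.9% of Pgr-negative cells, Krt17 in 14.95% and Krt15 in 13.1%, all above the B cell shares.

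Compared with Pgr-positive cells the split followed the keratin class. Of the 8 keratins 4 were higher in Pgr-negative cells, all of them basal, against 29.1% of 10238 genes tested with a ratio interval above 1. Krt15 was 228 times higher (127 to 457), Krt5 149 times (57.7 to 552), Krt17 82.1 times (52.8 to 135) and Krt14 76.5 times (45.1 to 141). The other 4, all simple, were lower, against 26.9% of genes: Krt7 was 6.42 times (5.55 to 7.46), Krt19 4.21 times (3.99 to 4.45), Krt18 2.64 times (2.53 to 2.76) and Krt8 2.30 times (2.20 to 2.41) higher in Pgr-positive cells. All 8 differed by 2-fold or more, against 20.1% of genes higher and 12.6% lower by that much. The 4 basal keratins were under 10 CPM in Pgr-positive cells and entered the comparison only through the group where they were high. Their Pgr-positive levels include the 1 cell with 3949 CPM of summed Krt5, Krt14 and Krt17. With Cdh1 also required, in 43 Pgr-negative cells, Krt8 and Krt18 were 1.51 times (1.44 to 1.58) and 1.72 times (1.65 to 1.80) higher in Pgr-positive cells, and so no longer 2-fold. Krt7 was then 4.28 times (3.69 to 4.99) and Krt19 2.82 times (2.67 to 2.98) higher. The keratinocyte genes Krt1, Krt10, Lor, Krtdap and Sbsn followed the basal keratins only in part. They summed to 539 CPM in Pgr-negative cells (562 with and 498 without Cdh1) and 33.7 CPM in Pgr-positive cells. The sum was 280.1 CPM in the contractile set described below. In Epcam-positive cells that also met the smooth muscle gate it was 23.8 CPM, while Krt14 there ranged from 1859 to 2816 CPM over 4 suffixes. Of the 539 CPM in Pgr-negative cells Sbsn gave 453, and Krt1 and Lor had no UMI there. The part of cells with these genes in the keratin levels was not tested. The median log2 ratio of the 8 was 2.53 and that of all genes tested -0.07. The value for the 8 falls between the 4 basal keratins, all higher, and the 4 simple ones, all lower, and so describes neither class. In suffix 1 the 17 Pgr-negative cells had no Krt5, Krt14 or Krt15 UMI, whereas suffix 2 had 453, 577 and 2847 CPM, suffix 3 had 370, 521 and 393 CPM and suffix 4 had 32.1, 491 and 21.4 CPM. Without suffix 2 the Pgr-negative Krt15 level was 128 CPM, Krt17 375 CPM and Krt5 125 CPM. Without suffix 1 Krt7 was 74.4 CPM. The 16 Pgr-negative cells of suffixes 5 to 8 had no UMI of any of the 8 keratins.

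The gate that sets aside cells of more than 1 type removed many of the basal cells. Of 125 cells with at least 5 Krt5 UMIs, 103 met several gates, as did 119 of 160 such cells for Krt14, and 134 cells met both the Epcam and the smooth muscle gate (at least 2 UMIs each of Myh11 and Acta2). The Epcam-positive cells with a Cdh1 UMI that met no gate but Epcam or smooth muscle were therefore also split by other genes, a grouping chosen after the data were seen. All 229 came from suffixes 1 to 4. They were 82 cells of the smooth muscle gate or with Trp63 (called the contractile set), 111 other cells with Pgr, 20 others with Kit or Elf5, and 16 with none of these.

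The contractile set had the basal keratins at high level. Krt17 stood at 2937 CPM (2838 to 3038), Krt14 at 2482 CPM (2391 to 2576), Krt15 at 1491 CPM (1421 to 1564) and Krt5 at 1101 CPM (1041 to 1164), and these were 393 (254 to 644), 474 (282 to 869), 363 (202 to 728) and 736 (287 to 2707) times their levels in the 111 Pgr cells. Those 111 cells include the 1 cell with 3949 CPM of summed Krt5, Krt14 and Krt17. Krt14 was found in 96.3%, Krt5 in 95.1%, Krt17 in 93.9% and Krt15 in 63.4% of the 82 contractile cells. Krt5 ranged from 740 to 1339 CPM and Krt14 from 1957 to 3113 CPM over the 4 suffixes, whereas Krt15 ranged from 170 to 2564 CPM. The simple keratins were present too, with Krt8 at 551 CPM in 82.9% of cells, Krt19 at 338 CPM, Krt18 at 333 CPM and Krt7 at 61.0 CPM. Of these 82 cells 2 had simple keratins alone; they held 220 of 377 Krt18, 225 of 382 Krt19, 178 of 623 Krt8 and 49 of 69 Krt7 UMIs. Without them, an alternative chosen after seeing the data, Krt8 stood at 409 CPM, Krt18 and Krt19 at 144 CPM each and Krt7 at 18.4 CPM. With all 82 cells counted, Krt7 in the Pgr cells was 17.0 times (13.4 to 21.9), Krt18 16.7 times (15.1 to 18.6), Krt19 15.4 times (13.9 to 17.1) and Krt8 8.30 times (7.66 to 9.01) higher. Oxtr, the oxytocin receptor of myoepithelial cells, which the split did not use, was found in 84.1% of the set, and Elf5 and Kit had no UMI.

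Against mesothelium the simple keratins of the contractile set depended on those 2 cells. Krt18 was 0.968 times (0.869 to 1.08) the mesothelial level with them and 0.419 times (0.355 to 0.491) without them, and it was higher than in mesothelium in 1 of 4 suffixes. Krt8 was 1.48 times (1.36 to 1.61) the mesothelial level with them, higher in 2 of 4 suffixes, and 1.10 times (0.995 to 1.21) without them. Krt19 and Krt7 were 4.00 times (3.62 to 4.44) and 3.59 times (2.83 to 4.63) higher in mesothelium, and 9.37 times (8.01 to 11.04) and 11.9 times (7.71 to 19.6) without the 2 cells. Krt18 of this set varied widely, from 39.9 to 1158 CPM over 4 suffixes with a median of 185 CPM. The mesothelial levels in these ratios pooled all 8 suffixes, whereas the contractile set came from suffixes 1 to 4. In suffixes 1 to 4 mesothelial Krt7 stood at 195 CPM, Krt8 at 310 CPM, Krt18 at 360 CPM and Krt19 at 1343 CPM.

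The 20 cells with Kit or Elf5 had Krt18 at 4236 CPM (4057 to 4421), Krt8 at 4209 CPM (4031 to 4394), Krt19 at 2079 CPM (1954 to 2209) and Krt7 at 187 CPM (151 to 229). Each of Krt8, Krt18 and Krt19 was found in all 20. Relative to them the 111 Pgr cells had 5.55 times (4.51 to 6.89) as much Krt7 and 2.50 times (2.34 to 2.66) as much Krt19, with 1.31 times (1.26 to 1.38) as much Krt18 and 1.09 times (1.04 to 1.14) as much Krt8. Krt5 and Krt15 had no UMI here, which allows up to 7.42 CPM, and Krt14 had 1. Csn3 and Ltf, milk protein genes of the luminal progenitor list that the split did not use, were found in 80% and 85% of these cells.

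Single Epcam-positive, Cdh1-positive cells fell on either side of a wide gap in basal keratins. Summed Krt5, Krt14 and Krt17 was at most 122 CPM in the cells under 1000 CPM and at least 1580 CPM in those above it, with no cell between. Of the 229 cells, 138 had 1000 CPM or more of summed simple keratins alone, 75 had 1000 CPM or more of basal keratins alone, 15 had both and 1 had neither. Here alone means that the other class was under 1000 CPM, not that it was absent. All 20 Kit or Elf5 cells and 110 of 111 Pgr cells were on the simple side. On the basal side were 80 of the 82 contractile cells, 66 with simple keratins under 1000 CPM and 14 with both classes above it. Without thinning, 74 of the 82 contractile cells (90.2%) had a UMI of a simple keratin and of Krt5, Krt14 or Krt17.

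**Figure D3:**
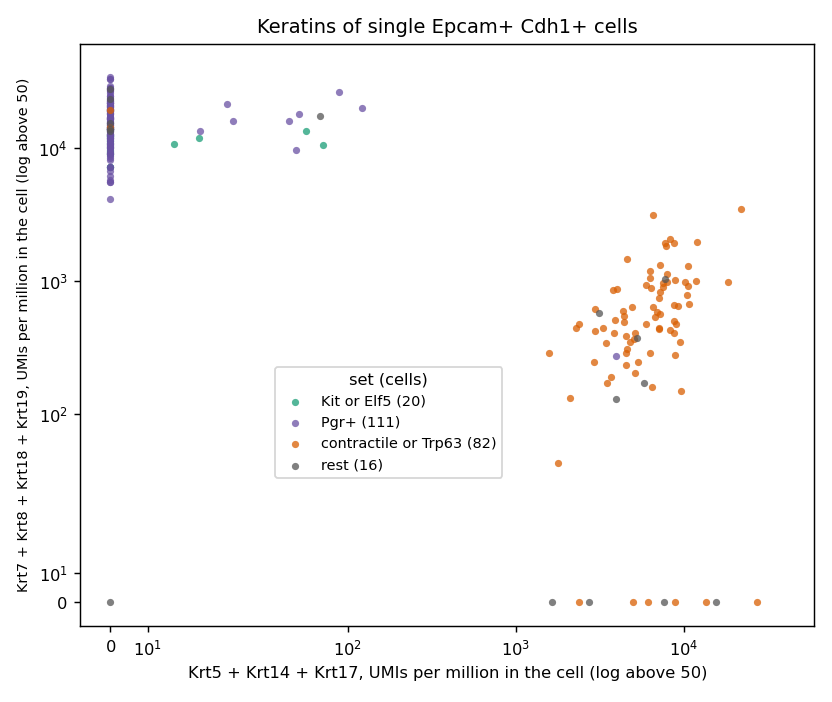
Each point is 1 of the 229 Epcam+ Cdh1+ cells, with its summed Krt5, Krt14 and Krt17 on the x axis and its summed Krt7, Krt8, Krt18 and Krt19 on the y axis, both in CPM of that cell on a scale that is logarithmic above 50. No cell lies between 122 and 1580 CPM on the x axis, and the contractile or Trp63 cells (orange) hold the right side.

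Pgr was found on both sides of that gap. Among such cells with Krt5, 20 also had Pgr and 68 did not; Pgr in the 20 stood at 144 CPM against 603 CPM in the 110 Pgr cells without Krt5. Prlr was found in 2 of these 20 cells (10%) against 98.2% of the 110, Trp63 in 14 (70%) against none, and Krt14 in 18 (90%) against 3.64%. Prlr summed to 765 CPM in the 20 cells, all of it in those 2.

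The make-up of the keratin pool also differed. Of the summed UMIs of the 8 genes in mesothelial cells, Krt19 took 58.4%, Krt8 16.1%, Krt18 14.9% and Krt7 9.46%, leaving 0.976% for Krt14. In Pgr-positive cells Krt18 took 33.9%, Krt19 31.7%, Krt8 27.9% and Krt7 6.35%. In the contractile set Krt17 took 31.6%, Krt14 26.7%, Krt15 16.04% and Krt5 11.8%. Type II genes gave 25.5% of the pool in mesothelial cells, 34.2% in Pgr-positive cells, 41.0% in Kit or Elf5 cells and 18.4% in the contractile set. The summed level per cell had a median of 1915 CPM in mesothelial cells (745 to 3995 CPM from the 10th to the 90th percentile), 15433 CPM in Pgr-positive cells (8221 to 24976 CPM) and 8544 CPM in the contractile set (3882 to 15403 CPM).

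**Figure D4:**
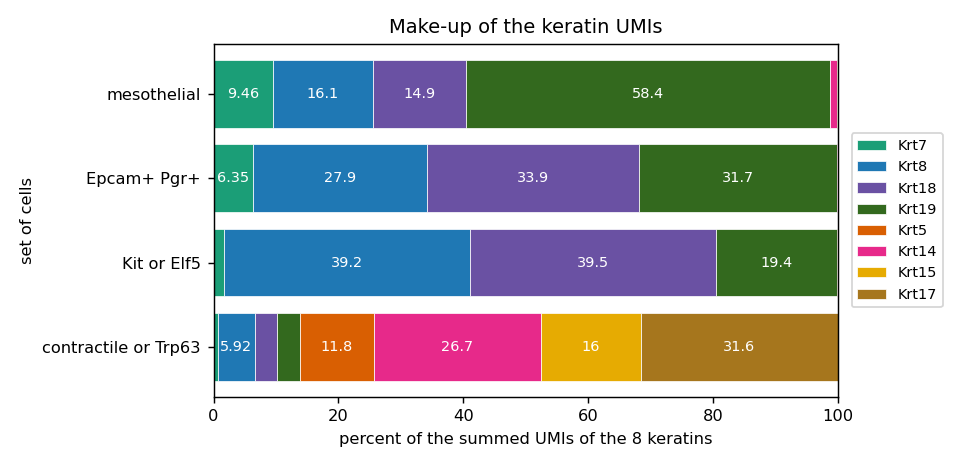
Share of each keratin, in percent of the summed UMIs of the 8 genes, in mesothelial, Epcam+ Pgr+, Kit or Elf5 and contractile or Trp63 cells; bars add to 100 and segments of 5% or more carry their value. Krt19 takes 58.4% in mesothelial cells, where the other simple keratins take 9.46% to 16.1%, and Krt17 with Krt14 takes most of the contractile set.

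Co-detection was counted in cells thinned to 2000 UMIs, where a missing UMI does not show a missing transcript. Krt8 and Krt18 were found together in 113 of 115 Pgr-positive cells (98.3%), in all 20 Kit or Elf5 cells, in 166 of 830 mesothelial cells (20%) and in 10 of 82 contractile cells (12.2%). All 4 simple keratins were found in 85.2% of Pgr-positive and 7.71% of mesothelial cells; without thinning the mesothelial share was 61.7%. In mesothelial cells Krt18 was found in 47.0% (41.7 to 52.4) of those with Krt8 and in 30.8% (26.7 to 35.2) of those without. Krt19 was found in 85.1% of mesothelial cells with Krt7 and in 84.7% of those without. Krt5, Krt14 and Krt17 were found together in 65 of 82 contractile cells (79.3%) and in no mesothelial cell, which allows a share of up to 0.444%. A simple and a basal keratin were found in the same cell in 64.6% of the contractile set, 2.53% of mesothelial and 2.61% of Pgr-positive cells. Spearman correlations of the simple keratins were taken across 794 mesothelial cells with at least 5000 UMIs, which share libraries and differ in depth. They were 0.40 for Krt8 with Krt19, 0.39 for Krt8 with Krt18 and 0.31 for Krt18 with Krt19. Those of Krt7 were 0.30 with Krt8, 0.28 with Krt19 and 0.24 with Krt18.

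Taking both Epcam-positive groups together (226 cells), all 8 keratins were higher than in mesothelial cells by 2-fold or more. A ratio interval above 1 was found for 47.6% of the 10409 genes tested, and one with a ratio of at least 2 for 22.5%. None of the 8 was lower, against 30.3% of genes, or 17.1% by at least 2-fold. Krt5, Krt15 and Krt17 were under 10 CPM in mesothelial cells and entered the comparison only through Epcam-positive cells. The ratios were 152 (69.1 to 419) for Krt5, 90.8 (62.3 to 138) for Krt17, 77.8 (58.4 to 106) for Krt15, 13.0 (12.6 to 13.4) for Krt18, 10.1 (9.77 to 10.4) for Krt8, 5.61 (4.85 to 6.50) for Krt14, 3.49 (3.32 to 3.68) for Krt7 and 2.92 (2.86 to 2.99) for Krt19. Their median log2 ratio was 3.52, against 0.23 for all genes tested. In the 4 suffixes with at least 10 cells of each, 6 of the 8 were higher in all 4, and Krt14 and Krt15 in 3. The Epcam-positive groups taken singly differed. Pgr-negative cells gave 482 of 496 Krt14, 1127 of 1138 Krt15, 739 of 759 Krt17 and 269 of 273 Krt5 UMIs. In Pgr-positive cells Krt14 was under the mesothelial level, and the Krt5 and Krt15 ratio intervals include 1. In Pgr-negative cells Krt7 (161 against 219 CPM) and Krt19 (1229 against 1351 CPM) were under the mesothelial level. All keratin UMIs of Epcam-positive cells came from suffixes 1 to 4, whereas the mesothelial levels in these ratios pooled all 8 suffixes. In suffixes 1 to 4 alone mesothelial Krt5 stood at 0.913 CPM, Krt14 at 8.07 CPM, Krt15 at 4.57 CPM and Krt17 at 2.89 CPM. Krt7 stood there at 195 CPM, Krt8 at 310 CPM, Krt18 at 360 CPM and Krt19 at 1343 CPM.

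In order of level over the 15 types, Krt8 and Krt18 ran from Pgr-positive to Pgr-negative to mesothelial cells, and Krt7 and Krt19 from Pgr-positive to mesothelial to Pgr-negative cells, each step larger than its counting intervals. For Krt7 and Krt19 the order of mesothelial and Pgr-negative cells turned with the gate: Pgr-negative cells with Cdh1 had 242 CPM of Krt7 and 1833 CPM of Krt19, those with Epcam at 2 UMIs or more had 234 and 1749 CPM, and without suffix 2 Krt19 was 1511 CPM, all above mesothelium. The fourth type of each had an interval that overlapped the next. Krt19 then stood highest in Schwann cells at 23.1 CPM (6 UMIs) and Krt18 in T cells at 11.5 CPM (14 UMIs). Krt14 ran from Pgr-negative to mesothelial to smooth muscle cells (12.9 CPM); its mesothelial level without suffix 7, 9.30 CPM, lies under that of smooth muscle. Krt5, Krt15 and Krt17 ran from Pgr-negative to smooth muscle cells, at 6.34, 8.96 and 13.1 CPM. Of the genes with the most similar pattern over the 15 types (Pearson r of log2(CPM + 1), 11697 genes, a description since the types share libraries), Krt18 led for Krt8 with r = 0.987 and Krt8 for Krt18. Epn3, an endocytic adaptor of epithelia, was among the nearest 3 for Krt7 (0.985), Krt8 (0.986), Krt18 (0.973) and Krt19 (0.978). Cgn, a tight junction protein, led for Krt7 (0.986). Col17a1, a hemidesmosome collagen, and Cidea were among the nearest 3 for Krt5 (0.974 and 0.979) and Krt17 (0.911 and 0.917), Trp63 for Krt15 (0.940), and Krt15 (0.893) and Krt17 (0.887) for Krt14.

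Low keratin counts in other types differed between the suffix sets. In fibroblasts Krt18 stood at 5.90 CPM in suffixes 1 to 4 and 0.174 CPM in suffixes 5 to 8, a ratio of 33.8 (16.9 to 79.2). Krt8 was 5.41 against 0.502 CPM (10.8, 7.01 to 17.4), Krt19 22.8 against 4.86 CPM (4.68, 4.04 to 5.44) and Krt7 1.29 against 0.654 CPM (1.97, 1.24 to 3.18). Krt5, Krt15 and Krt17 had 24, 26 and 47 UMIs in suffixes 1 to 4 and none in suffixes 5 to 8. Macrophages, a type not known for keratins, differed likewise: Krt18 was 7.85 against 0.432 CPM (18.2, 9.78 to 37.4) and Krt8 8.95 against 0.511 CPM (17.5, 9.90 to 33.8). So did smooth muscle cells, with 173 Krt14, 176 Krt17, 120 Krt15 and 85 Krt5 UMIs in suffixes 1 to 4 and none in 933 cells of suffixes 5 to 8. Suffixes 1 to 4 held all 229 Epcam-positive, Cdh1-positive cells described above; whether that bears on the low counts elsewhere was not tested. The keratins of mesothelial cells, Krt14 apart, differed by less than 1.5 times between the sets where they exceeded 10 CPM.

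**Figure D5:**
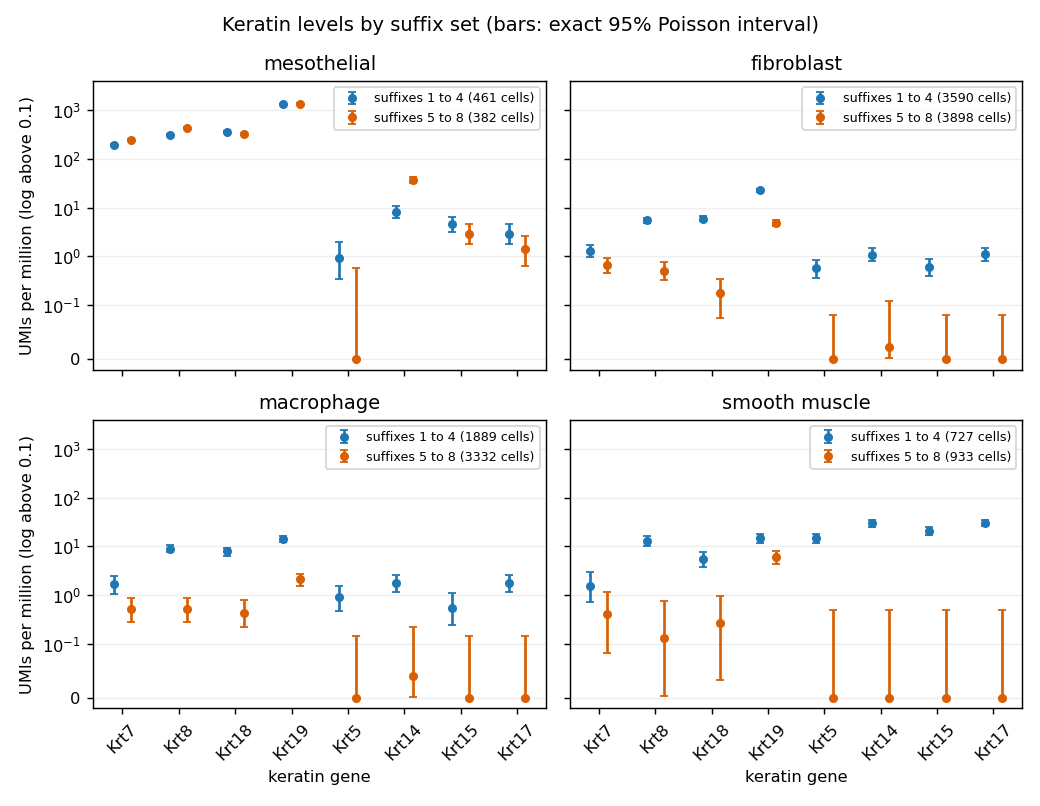
Keratin levels in CPM (log scale above 0.1) in suffixes 1 to 4 (blue) and 5 to 8 (orange), for mesothelial cells, fibroblasts, macrophages and smooth muscle cells; bars are exact 95% Poisson intervals. In mesothelial cells Krt19 is 0.987 times as high in suffixes 1 to 4, whereas in fibroblasts and macrophages Krt8 and Krt18 are 10.8 to 33.8 times as high there.

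Fibroblasts summed to 13.5 CPM of Krt19, in 7.73% of 7488 cells, against 8.91 CPM in B cells (ratio 1.51, 0.843 to 3.04); 143 of the 204 B cells came from suffixes 1 to 4. Krt19 was higher in the 303 fibroblasts with a UMI of Upk3b or Msln, at 58.9 against 11.3 CPM in the rest (5.22, 4.51 to 6.02), and so in 8 of 8 suffixes. Krt7 was 2.43 against 0.888 CPM (2.74, 1.26 to 5.33), and the intervals of Krt8 and Krt18 include 1. Summed over all suffixes, mesothelial cells had 228 times (184 to 287) the fibroblast level of Krt7, 130 times (114 to 148) that of Krt8, 117 times (103 to 133) that of Krt18 and 100.2 times (94.5 to 106) that of Krt19. Each was higher in 8 of 8 suffixes, but the size differed between the suffix sets. Krt8 was 310 against 5.41 CPM in suffixes 1 to 4 and 435 against 0.502 CPM in suffixes 5 to 8. For Krt18 the values were 360 against 5.90 CPM and 329 against 0.174 CPM. The 99 mesothelial cells that also met the fibroblast gate had Krt19 at 1229 CPM and Krt7 at 200.4 CPM.

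Genes that anchor keratins were counted where they reached 20 CPM in either group; over all genes tested, 22.5% were at least 2-fold higher in Epcam-positive than mesothelial cells and 17.1% lower, with a median log2 ratio of 0.23. Of the 13 desmosome genes 9 reached 20 CPM and all 9 were higher. As 6 of them did so only in Epcam-positive cells, where they were high, the count is a description. Among them was Dsp, the plakin that ties keratins to desmosomes, at 143 against 1.15 CPM (125, 75.01 to 224). The desmosomal cadherins Dsg2 and Dsc2 were 46.2 times (30.8 to 72.4) and 15.5 times (9.58 to 26.1) higher. Pkp1, a desmosomal plaque protein, had a ratio of 251 (68.3 to 2093) on 2 mesothelial UMIs. Of 8 plakin and hemidesmosome genes 2 were higher, a share near that of all genes, Col17a1 (92.6, 30.6 to 458, on 3 mesothelial UMIs) and the integrin Itga6 (3.11, 2.72 to 3.56), and 2 were higher in mesothelium, Cd151, a tetraspanin, (4.52, 4.03 to 5.07) and periplakin Ppl (4.17, 3.50 to 5.01). Of 11 tight and adherens junction genes 6 were higher, among them the claudin Cldn4 at 759 CPM against 10 mesothelial UMIs (994, 540 to 2075) and Cdh1 at 441 CPM against 6 UMIs (963, 442 to 2628). Cldn7 and Ocln, occludin, each had 1 mesothelial UMI, with ratios of 3821 (684 to 151040) and 1155 (206 to 45760). The claudin Cldn15 was 338 times (145 to 1042) and Cdh3 2.24 times (1.62 to 3.19) higher in mesothelium. Of the 6 higher junction genes 4 reached 20 CPM only in Epcam-positive cells. Over every measured gene of a list, with 0 set to 3 UMIs, the median log2 ratio was 3.86 for desmosome, 0.06 for plakin and hemidesmosome and 1.38 for junction genes.

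Of 4 other filament genes at that level, Vim, vimentin, was 13.0 times (12.0 to 14.0) and Des, desmin, 16.5 times (8.90 to 34.6) higher in mesothelium, and the lamin Lmna 2.51 times (2.39 to 2.63) higher in Epcam-positive cells (median log2 ratio over the 8 genes of the list -1.17). Of 10 epithelial transcription factors 9 were higher in Epcam-positive cells, but all 9 reached 20 CPM only there, so the count is a description (median log2 ratio over the whole list 6.45). Grhl2, Elf5 and Ehf had 57.0, 60.1 and 96.1 CPM there and no mesothelial UMI, and Elf3 had a ratio of 1169 (208 to 46290) on 1 mesothelial UMI. The gene that was not higher by 2-fold, named after its value was seen, was Klf5, at 97.6 against 69.0 CPM (1.41, 1.25 to 1.60). Of 9 keratin partners Krtcap3 (126, 56.8 to 346), Sfn, which binds keratins, (61.7, 51.4 to 74.8) and Trim29 (53.0, 29.6 to 104) were higher, the chaperone Hspb1 was 5.87 times (5.63 to 6.13) higher in mesothelium, and the other 5 differed by less than 2-fold. All 3 that were higher reached 20 CPM only in Epcam-positive cells, and the median log2 ratio over the whole list was 0.10.

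Between the Epcam-positive groups 20.1% of all genes tested were at least 2-fold higher in Pgr-negative cells and 12.6% lower, with a median log2 ratio of -0.07. Over the genes of each list with a UMI, the median was 1.18 for desmosome, -0.39 for plakin and hemidesmosome, 0.35 for junction, 2.15 for other filament, 0.59 for transcription factor and 0.61 for partner genes. Of the genes counted next, 3 of 11 desmosome, 1 of 8 plakin and hemidesmosome, 2 of 10 junction, 1 of 3 other filament, 2 of 11 transcription factor and 1 of 9 partner genes reached 20 CPM only in Pgr-negative cells. Of 11 desmosome genes 5 were at least 2-fold higher in Pgr-negative cells, among them Dsc3 and Dsg3, cadherins of stratified epithelium, at 60.9 and 25.5 CPM with no UMI in Pgr-positive cells, Pkp1 (5.02, 3.52 to 7.27) and Perp (3.63, 3.07 to 4.303), a desmosomal membrane protein. Dsc2 was 3.52 times (1.87 to 7.31) higher in Pgr-positive cells. Of 8 plakin and hemidesmosome genes Col17a1 (182, 31.8 to 7283, on 1 Pgr-positive UMI) and Ppl (3.09, 2.17 to 4.44) were higher and Dst, dystonin, was 2.39 times (2.08 to 2.75) higher in Pgr-positive cells. Of 10 junction genes Cldn1 (10.4, 4.97 to 24.2) and Cdh3 (9.17, 4.15 to 23.0) were higher, a share near that of all genes, and none was lower by 2-fold. Of 3 other filament genes Vim (13.7, 11.04 to 17.1) and Lmnb1 (3.55, 2.21 to 5.81) were higher, in a group whose fibroblast genes were also higher (above); the part of those in the Vim value was not tested. Of 11 transcription factors 4 were higher, with Trp63 at 37.1 CPM against no UMI, Sox10 at 3.01 times (2.02 to 4.53), Ehf at 2.78 times (2.26 to 3.43) and Ovol1 at 2.44 times (1.87 to 3.19), and 2 were higher in Pgr-positive cells, Foxa1 (6.41, 4.67 to 9.03) and Elf3 (2.08, 1.58 to 2.79). Of 9 partners Trim29 (3.41, 2.52 to 4.62), Sfn (2.32, 2.13 to 2.52) and Hspb1 (2.04, 1.88 to 2.22) were higher and Krtcap3 was 2.62 times (1.80 to 3.91) higher in Pgr-positive cells.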

How the data were processed

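The authors deposited 1 table of UMI counts per gene and barcode, made with Cell Ranger 7.1.0 on mm10 per the submitters' processing notes, which also list Seurat 4.3.0.1; its role, their annotation and any filter are not given in the sources used here. Each count is a whole number of unique molecules. The table also holds multiplexing oligo counts, which were not used here. Barcodes with under 500 UMIs, under 300 genes or 15% or more mitochondrial UMIs were left out (380), as were 719 doublets (3.04%) called by scrublet (scanpy 1.11.5, expected rate 6%, per suffix set). A cell took a type when it met 1 gate; mesothelial cells could also meet the fibroblast gate.

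UMIs were summed per type and divided by all gene UMIs (CPM), with exact Poisson intervals; ratios have exact conditional binomial intervals and shares Clopper-Pearson intervals (scipy 1.17.1). A gene was tested at 10 CPM or more in either group and called where the interval of the ratio excluded 1. Cells are not replicates and the suffixes carry no label, so there is no p-value. Shares were also computed after thinning cells to 1000 UMIs (2000 for co-detection), leaving out shallower cells: 2 mesothelial, 3 Pgr-negative and no Pgr-positive or B cells at 1000. The scripts were tested on simulated data. The genes named are all 8 members, other keratins at 20 CPM or more in mesothelial or Epcam-positive cells, the 3 genes most alike to each member, and up to 4 of each list with the largest ratio each way. One marker list of the Pgr-negative gate is not reported here. The members and lists were chosen with earlier results of these data known. Alternatives changed the filters, gates, depth, doublets, normalization and suffixes used.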

Additional observations from a re-analysis of the deposited data

Results flagged for a closer look

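For 4 results a keratin level of 1 barcode suffix lay far from the others, out of 24 sets of 4 or 8 suffixes examined. The limit used would flag about 1 in 20 sets by chance if the values were normally distributed. These levels are bounded at 0, some rest on few UMIs and the sets share cells, so that rate need not hold and the count is a description. The mesothelial Krt14 level was 86.9 CPM in suffix 7, far above the next suffix at 17.6 CPM. Krt17 in Pgr-positive Epcam cells was 20.1 CPM in suffix 4 against 2.96 CPM in the next. In Pgr-negative Epcam cells Krt14 was 0 in suffix 1, where the other suffixes had at least 491 CPM, and Krt15 was 2847 CPM in suffix 2 against 393 CPM in the next. The Pgr-positive Krt17 value rests on 20 UMIs over all suffixes, 17 of them from suffix 4. Among the 111 Pgr cells with Cdh1, 1 cell had 3949 CPM of summed Krt5, Krt14 and Krt17 and the others had at most 122 CPM. The Pgr-negative values rest on 17 to 32 cells per suffix.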

How the results depend on the processing

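Over 21 alternatives (18 planned, 3 chosen after seeing the data), all 84 counts of keratins stayed within 1.5 times their value, and 352 of 504 single levels stayed inside the main interval. Mesothelial Krt7, Krt8, Krt18 and Krt19 moved by less than 1.5 times under every alternative run. Mesothelial Krt14 was 9.30 to 25.6 CPM with a suffix left out and 8.07 CPM in suffixes 1 to 4 alone, under the 10 CPM limit. The Pgr-negative levels moved too. Krt15 was 128 to 1201 CPM, Krt5 125 to 279 CPM, Krt17 375 to 730 CPM, Krt14 322 to 472 CPM and Krt7 74.4 to 216 CPM with a suffix left out. Krt8 was 629 CPM with Epcam-positive cells of any other gate kept and 2841 CPM with Epcam at 2 UMIs or more; Krt18 was 588 and 3023 CPM and Krt19 461 and 1749 CPM. With cells of the smooth muscle gate counted, Pgr-positive Krt17 was 358 CPM, Krt14 272 CPM, Krt15 152 CPM and Krt5 129 CPM. With Epcam and Cdh1 required whatever other gates were met, Pgr-negative Krt14 was 1439 CPM and Krt17 1678 CPM. Depth limits the basal keratins of mesothelium, where Krt5 rests on 6 UMIs. Leaving 2 cells out of the contractile set is given beside its levels. No paired analysis was possible because the labels give the suffixes no replicate number; cell types were compared within suffixes by counts alone.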

Other observations

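Of 45 other keratin genes in the table, 5 reached 20 CPM in mesothelial or Epcam-positive cells and 18 had no UMI there. Krt79 stood at 211 CPM in Pgr-negative cells, carried by 4 of 110 cells, and at 0.534 CPM in mesothelial cells. In the contractile set it stood at 146 CPM, carried by 2 of 82 cells. Krt80 stood at 42.0 CPM in 25 Pgr-negative cells, 12.6 CPM in Pgr-positive and 2.29 CPM in mesothelial cells. Krt23 was at 84.0 CPM (67.9 to 103) in the contractile set, in 36 of 82 cells, and at 16.6 CPM in mesothelial cells. Krt10, known from differentiated epidermis, stood at 18.4 CPM in mesothelial and 32.9 CPM in Pgr-negative cells. Krt77 reached 20.6 CPM in Pgr-negative cells through 2 cells.

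Of 1114 cells with at least 5 Krt19 UMIs, 741 (66.5%) were mesothelial, and 77 met no gate. Those 77 cells were singled out after their values were seen; lacking every gate, they have no Epcam UMI by construction. Rspo1 was found in 75.3% of them, Gpm6a in 71.4%, Wt1 in 51.9% and Upk3b in 44.2%, and Msln, which the mesothelial gate needs, in 5.19%. All 77 had Dcn; they had no Pdgfra, which the fibroblast gate needs. Krt8 was found in 31.2% and Krt18 in 22.1% of them, against 84.7% and 79.0% of gated mesothelial cells.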
